A study of Homo sapiens with 12 samples.

Results

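The RAB genes encode small GTPases, membrane-bound molecular switches that mark organelles and direct the traffic of vesicles between them. They were taken here as all genes whose symbol on the array is RAB followed by a number and at most 1 letter, and 57 of the 18132 genes represented on the array met that rule. Each gene was read through 1 probe set (a group of probes for 1 transcript), the one with the highest mean over the 12 arrays among those assigned to exactly 1 gene symbol. Messenger RNA was measured on Affymetrix PrimeView arrays in THP-1, a human monocytic leukaemia cell line that becomes macrophage-like when treated with the phorbol ester PMA. All groups were THP-1 cells differentiated with PMA (100 ng/ml for 48 hours in the growth protocol), and each group had 3 arrays. The group called inhibitor here is labelled siThermomir: its protocol has cells differentiated at 40 °C and nucleofected with a GFP plasmid and a hairpin inhibitor against a thermomiR (a microRNA that responds to temperature). Its controls are labelled WT and control, and the same protocol covers them. GFP-positive cells were sorted 24 hours after nucleofection. The temperature experiment had cells kept at 40 °C, a fever-like temperature, and cells kept at 37 °C, without nucleofection or sorting in the labels. Harvests at 2, 8 and 24 hours at 40 °C are described, and which of them went on the arrays is not stated. Neither the blocked microRNA nor the reagent that the control arrays received is stated, and the labels do not name separate cultures behind the replicates, so the spread that the p-values rest on may be technical.

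A RAB protein is active when bound to GTP and inactive when bound to GDP. Exchange factors load it with GTP, GTPase-activating proteins end the active state, effectors bind the active form, and GDP dissociation inhibitors (GDI) carry the inactive, prenylated protein through the cytosol. In macrophages, RAB5 proteins act on early endosomes and young phagosomes, RAB7 proteins on late endosomes, lysosomes and ageing phagosomes, RAB11 proteins in recycling, and RAB27A in the release of secretory granules and lysosome-related organelles.

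The members whose transcripts differed most with temperature and that have a listed start site are shown by their promoters, which run from 250 bases before to 50 bases after the start (RefSeq, GRCh38.p14). Of the 57 members, 45 had at least 1 listed promoter, with 63 in all. RAB7B and RAB23 have 2 listed starts each, and RAB32 and RAB40B have 1. Capitals mark matches to the paired units of a heat shock element, the DNA motif bound by heat shock factors, searched in both orders, GAANNTTC and TTCNNGAA. Both motifs read the same on either strand, and the 2 orders may overlap.
RAB7B at chr1:206003346-206003645: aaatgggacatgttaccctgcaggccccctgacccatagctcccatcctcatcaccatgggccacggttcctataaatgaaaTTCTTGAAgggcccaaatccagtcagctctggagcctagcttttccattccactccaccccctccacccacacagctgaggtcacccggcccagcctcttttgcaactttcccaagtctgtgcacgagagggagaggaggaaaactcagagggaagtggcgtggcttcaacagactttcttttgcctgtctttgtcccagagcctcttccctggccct
RAB7B at chr1:205994408-205994707: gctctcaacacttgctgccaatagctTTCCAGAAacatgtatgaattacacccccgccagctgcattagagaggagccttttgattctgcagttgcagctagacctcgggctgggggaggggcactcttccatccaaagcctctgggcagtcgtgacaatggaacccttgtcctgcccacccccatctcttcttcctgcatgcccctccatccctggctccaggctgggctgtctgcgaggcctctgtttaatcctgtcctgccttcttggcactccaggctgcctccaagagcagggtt
RAB23 at chr6:57222258-57222557: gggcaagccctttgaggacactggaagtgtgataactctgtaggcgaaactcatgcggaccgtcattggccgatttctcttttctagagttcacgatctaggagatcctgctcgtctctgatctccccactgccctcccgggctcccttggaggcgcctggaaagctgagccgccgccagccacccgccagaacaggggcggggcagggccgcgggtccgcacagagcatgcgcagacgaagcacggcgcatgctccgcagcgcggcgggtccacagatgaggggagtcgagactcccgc
RAB23 at chr6:57221413-57221712: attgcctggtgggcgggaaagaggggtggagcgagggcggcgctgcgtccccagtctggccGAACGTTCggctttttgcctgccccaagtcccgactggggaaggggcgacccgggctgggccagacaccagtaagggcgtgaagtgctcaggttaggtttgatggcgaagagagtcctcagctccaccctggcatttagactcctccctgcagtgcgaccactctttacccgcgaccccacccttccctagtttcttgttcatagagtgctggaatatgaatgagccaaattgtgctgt
RAB32 at chr6:146543583-146543882: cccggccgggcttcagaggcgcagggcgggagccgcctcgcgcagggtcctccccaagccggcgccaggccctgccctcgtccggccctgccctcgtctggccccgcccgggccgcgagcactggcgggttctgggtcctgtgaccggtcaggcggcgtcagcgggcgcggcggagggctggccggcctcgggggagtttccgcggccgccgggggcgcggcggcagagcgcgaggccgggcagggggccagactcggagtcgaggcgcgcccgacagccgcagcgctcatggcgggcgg
RAB40B at chr17:82698649-82698948: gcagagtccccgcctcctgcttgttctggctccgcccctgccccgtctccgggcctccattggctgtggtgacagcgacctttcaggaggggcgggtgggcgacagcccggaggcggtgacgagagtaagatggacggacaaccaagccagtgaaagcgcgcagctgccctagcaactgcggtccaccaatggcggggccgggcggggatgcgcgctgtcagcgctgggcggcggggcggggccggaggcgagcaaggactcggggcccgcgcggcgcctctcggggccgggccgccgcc
The RAB32 promoter lies on the plus strand and the others on the minus strand, each written 5′ to 3′ along its gene. The matches were TTCTTGAA, beginning 168 bases before the start, and TTCCAGAA, beginning 224 bases before the start, in the 2 promoters of RAB7B, and GAACGTTC, beginning 189 bases before the start, in the second of RAB23. GAANNTTC occurred in 6.77% of all 35097 promoters of that length and in 1 of the 63 RAB promoters. TTCNNGAA occurred in 7.74% of all promoters and in 5 RAB promoters, those of RAB5A, RAB25 and RAB35 and both of RAB7B. The RAB shares, 1.59% and 7.94%, are read beside those of all promoters and describe letters only.

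Values are deposited log2 expression levels. Of the 57 members, 49 had a mean at or above log2 4.48, the 30th percentile over the non-control probe sets, and were tested with the 13909 genes past that level. The other 8, RAB3C, RAB6D, RAB9B, RAB26, RAB27B, RAB30, RAB40A and RAB41, were measured but not tested. RAB3C was among them although it averaged 4.87 ± 0.13 at 40 °C and 4.87 ± 0.09 at 37 °C, against 3.54 ± 0.03 in inhibitor cells and 3.61 ± 0.21 in their controls (SD, n = 3 each). Levels of different probe sets are not comparable, so members are compared with themselves across groups. In THP-1 bulk RNA, fewer cells carrying a transcript and less RNA per cell cannot be told apart.

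All 8 macrophage markers were at or above the level used for testing, as were 1 of 4 erythroid, 4 of 6 lymphocyte and 3 of 7 fibroblast or epithelial markers. Of these others, NKG7 (group means of 6.49 to 7.46), CD79A (5.45 to 5.92) and ALAS2 (5.53 to 5.76) lay well above it in every group. The rest lay near or below it. Array medians over all probe sets lay between 5.72 and 5.87. Arrays of 1 group correlated at 0.9939 or more across probe sets, and arrays of the inhibitor experiment correlated with those of the temperature experiment at 0.9514 to 0.9666.

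**Figure D1:**
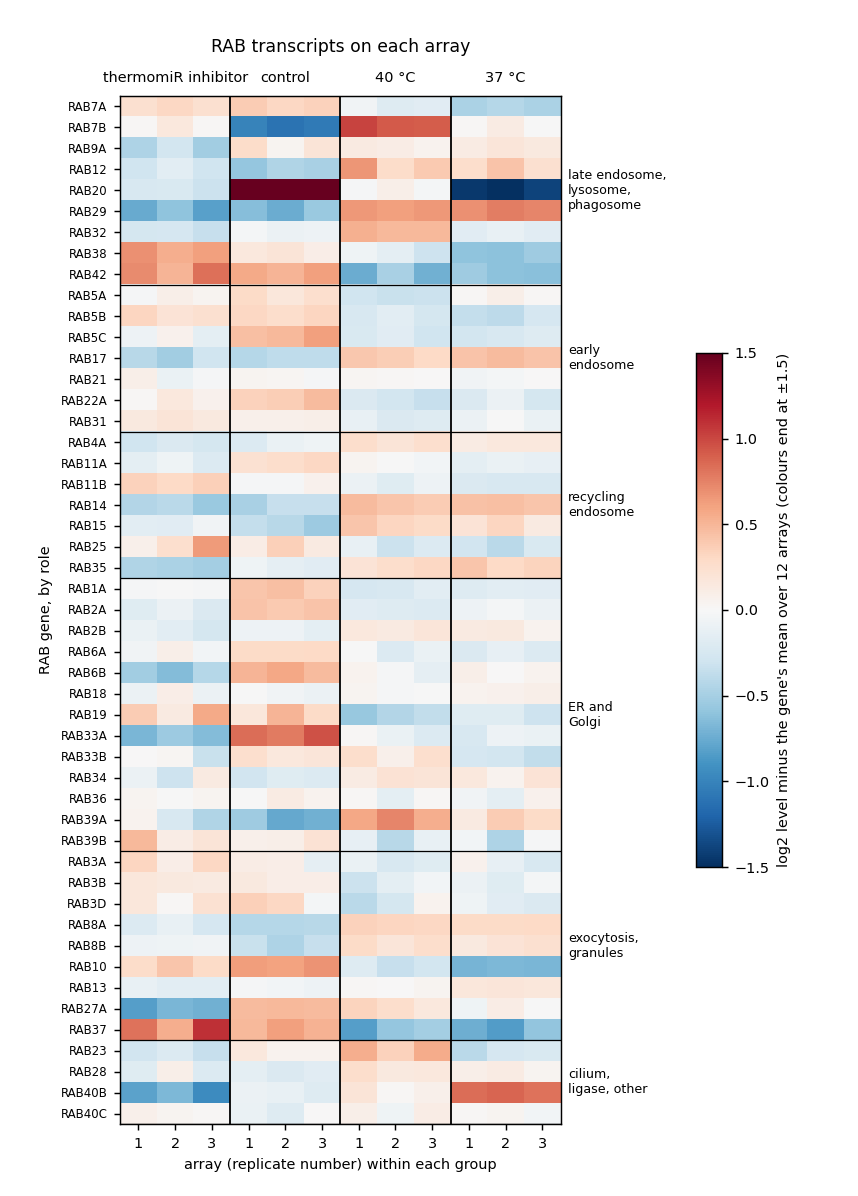
Log2 level of each of the 49 tested RAB genes (rows, by role) on each of the 12 arrays (columns, by group), as the deviation from the gene's mean over all arrays, with colours ending at 1.5 in either direction. RAB20 is deepest red on the 3 control arrays and deepest blue on the 3 arrays at 37 °C, and RAB7B is red on the 3 arrays at 40 °C and blue on the 3 control arrays.

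The temperature comparison asks which RAB transcripts change at a fever-like temperature. Of the 10 RAB transcripts that rose at 40 °C, 5 belong to late endosomes, lysosomes and phagosomes: RAB20, RAB7B, RAB32, RAB38 and RAB7A, out of 9 tested members with that role. At the probe sets read, none of the 9 was lower by limma, with 0 lower at an unadjusted p under 0.05 as well. This rests on the choice of probe set for RAB7A and RAB12, each of which has another probe set that was called lower (-0.47 and -0.23). Recycling RABs had 0 called members among 7 by limma, with 2 (RAB11A and RAB11B) higher at an unadjusted p under 0.05 and differences from -0.09 to 0.12. Other probe sets were called higher in RAB4A (0.26) and RAB35 (0.23) and lower in RAB11A (-0.30 and -0.38). In all, 10 members were called higher and 4 lower at an adjusted p under 0.05 with limma (Benjamini-Hochberg over the 13909 genes), or 28.6% of the 49 tested. The background was higher: 39.3% of all tested genes were called in this comparison, 21.6% as higher and 17.7% as lower. The members' median absolute difference was 0.093, against 0.13 over all tested genes. At least 0.5 in size and called were 4 members that rose and 1 that fell, against 4.26% and 3.72% of all tested genes.

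RAB20, which acts on phagosomes and endosomes of macrophages, had the largest difference of any member. It read 8.04, 8.14 and 8.03 at 40 °C, against 6.61, 6.49 and 6.67 at 37 °C. The 3 arrays at 40 °C all lie far above the 3 at 37 °C, with no overlap. The difference was 1.48 ± 0.06 (SE of the fit), a 2.79-fold higher level (adjusted p = 5.74e-06), and it was called under each of the 17 alternative settings, between 1.43 and 1.54. Only 1 probe set reads RAB20, so no other probe set checks it.

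RAB7B, a late endosomal RAB known in macrophages for lowering Toll-like receptor 4 levels, came next. It read 9.61, 9.52 and 9.51 at 40 °C, against 8.61, 8.72 and 8.59 at 37 °C. Every array at 40 °C was higher than every array at 37 °C. The rise was 0.91 ± 0.05 (1.88-fold, adjusted p = 1.8e-05), and its other probe set also rose, by 0.68. Its close relative RAB7A, which drives fusion of late endosomes with lysosomes, read 10.60, 10.46 and 10.48 at 40 °C, against 10.18, 10.23 and 10.18 at 37 °C, a rise of 0.32 ± 0.05 (adjusted p = 0.00194). For RAB7A the probe sets did not move together. Another of its probe sets fell by 0.47 and a further one differed by -0.22, and the mean over its probe sets was 0.12 lower at 40 °C, so the direction for RAB7A rests on the probe set read.

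RAB32 and RAB38, related RABs that build lysosome-related organelles, both rose. RAB32 read 9.43, 9.39 and 9.39 at 40 °C, against 8.73, 8.79 and 8.73 at 37 °C, a rise of 0.65 ± 0.04 (1.57-fold, adjusted p = 2.97e-05). RAB38 read 6.80, 6.72 and 6.56 at 40 °C, against 6.26, 6.25 and 6.33 at 37 °C, a rise of 0.41 ± 0.07 (adjusted p = 0.00177). Groups of neither gene overlap. The late endosomal members not called were RAB9A, RAB12, RAB29 and RAB42, with differences from -0.09 to 0.14.

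Outside that group, RAB23, a ciliary RAB known as a negative regulator of Hedgehog signalling, read 7.70, 7.51 and 7.72 at 40 °C, against 6.76, 6.91 and 6.93 at 37 °C. It was higher on every 40 °C array, by 0.78 ± 0.07 (1.71-fold, adjusted p = 0.000132), and its 2 other tested probe sets rose by 0.55 and 0.65. RAB33B, a Golgi RAB that binds the autophagy protein ATG16L1, rose by 0.50 ± 0.06 (adjusted p = 0.000555). RAB10, which carries Toll-like receptor 4 to the cell surface in mouse macrophages, rose by 0.41 ± 0.05, while its other tested probe set differed by -0.13 and was not called and the mean over its probe sets lost the call. RAB39A rose by 0.35 ± 0.08. RAB27A, the RAB of secretory granules, read 8.49, 8.42 and 8.31 at 40 °C, against 8.09, 8.27 and 8.15 at 37 °C, a rise of 0.24 ± 0.07 (adjusted p = 0.0233) that lost its call without 37 °C replicate 1 or 3 and without 40 °C replicate 1 or 2, with differences of 0.20 to 0.23 in those fits. RAB27A also lost it with the mean of its probe sets (0.10, adjusted p = 0.111) and with the level of the poly-A spike controls as a covariate (0.06, adjusted p = 0.67).

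RAB40B, one of the RABs that join a ubiquitin ligase complex, fell most. It read 7.83, 7.65 and 7.71 at 40 °C, against 8.47, 8.51 and 8.45 at 37 °C. The groups do not overlap, and the difference was -0.75 ± 0.06 (1.68-fold lower, adjusted p = 5.09e-05). Its relative RAB40C differed by 0.04 ± 0.06 and was not called. RAB5A, which drives fusion of early endosomes, read 10.61, 10.57 and 10.59 at 40 °C, against 10.93, 11.00 and 10.93 at 37 °C, and fell by 0.36 ± 0.04 (adjusted p = 0.000436). All 3 of its other probe sets fell too, with differences from -0.43 to -0.29. The other RAB5 genes did not share that call: RAB5B read 8.19, 8.28 and 8.17 at 40 °C, against 8.07, 8.04 and 8.18 at 37 °C (0.12 ± 0.06), and RAB5C read 8.21, 8.27 and 8.15, against 8.17, 8.20 and 8.25 (0.00 ± 0.05). RAB13 (-0.15 ± 0.04, adjusted p = 0.0186) and RAB19 (-0.23 ± 0.06, adjusted p = 0.0232) were also called lower. Both lost the call with the replicate block and the spike covariate, and also without 37 °C replicate 1, without 37 °C replicate 2 and without 40 °C replicate 2, which left 2 members called lower in each of those fits.

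Of the 13 tested ER and Golgi members, 2 were called higher and 1 lower, or 15.4% and 7.69%, against 21.6% and 17.7% of all tested genes. RAB1A, which serves the step from ER to Golgi, read 11.18, 11.19 and 11.28 at 40 °C, against 11.24, 11.27 and 11.26 at 37 °C, and the difference of -0.04 ± 0.05 was within the spread. RAB2A (-0.12 ± 0.04, adjusted p = 0.0509) and RAB6B (-0.09 ± 0.06) were not called. Yet 2 other probe sets of RAB2A fell, by 0.68 and 0.83, and 2 of RAB6B, by 0.47 and 0.69. In RAB18, also not called, 1 other probe set fell by 0.26. RAB11A read 10.90, 10.86 and 10.82 at 40 °C, against 10.71, 10.76 and 10.74 at 37 °C (0.12 ± 0.04, adjusted p = 0.0603). RAB11B read 10.68, 10.59 and 10.69, against 10.55, 10.53 and 10.53 (0.12 ± 0.05, adjusted p = 0.0827). The arrays of neither RAB11 gene overlap between temperatures, yet neither difference passed the test, and 2 other probe sets of RAB11A fell. Of the members, 24 had groups that do not overlap, or 49% of those tested, against 49.5% of all tested genes.

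**Figure D2:**
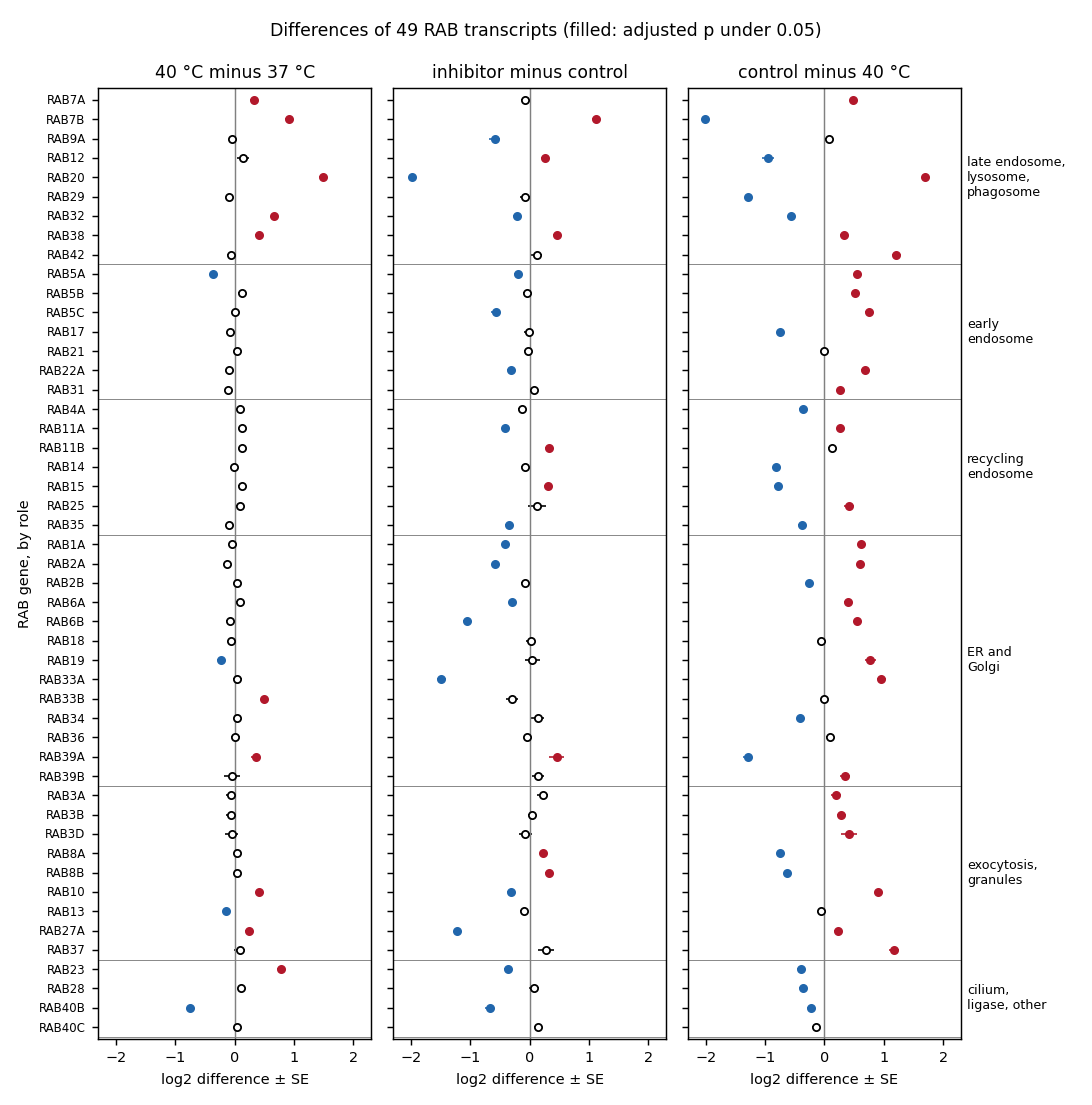
Differences in log2 level with the SE of the fit for the 49 tested RAB genes (rows, by role) in 3 comparisons, 40 °C minus 37 °C, inhibitor minus control, and inhibitor-experiment control minus 40 °C. Filled points passed an adjusted p under 0.05, red for higher and blue for lower. Late endosomal members lead the rises at 40 °C, and RAB20 and RAB7B are the extremes in the other 2 panels.

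Genes that act on RAB proteins were drawn from a list of 130, of which 117 were tested. At 40 °C, 28 rose and 35 fell, so 53.8% were called (23.9% higher and 29.9% lower), against 39.3% of all tested genes (21.6% higher and 17.7% lower). LRRK2, the kinase that phosphorylates several RABs and is recruited by RAB29, read 4.50, 4.54 and 4.39 at 40 °C, against 6.18, 6.41 and 6.17 at 37 °C. The means of its 3 other groups lie at or below the level used for testing, so it passed that filter through the 37 °C arrays, and the difference of -1.78 is given as a description only. PPM1H, a phosphatase that removes phosphate from RABs, rose by 0.28 ± 0.06, and RAB29 itself read 10.07, 10.04 and 10.07 at 40 °C, against 10.11, 10.19 and 10.16 at 37 °C, which was not called.

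Effectors of RAB27A moved in both directions. MLPH (melanophilin), which links RAB27A to the motor myosin Va, read 7.27, 6.97 and 6.93 at 40 °C, against 8.04, 8.23 and 7.97 at 37 °C, and fell by 1.02 ± 0.10 (adjusted p = 0.000176). MYO5A, the gene for that motor, read 7.70, 7.65 and 7.55 at 40 °C, against 8.45, 8.48 and 8.41 at 37 °C, and fell by 0.81 ± 0.05 (adjusted p = 2.61e-05). In both, all 40 °C arrays lie below all 37 °C arrays. The synaptotagmin-like effectors SYTL3 and SYTL4, which tie RAB27 proteins to membranes for docking, rose by 0.68 ± 0.07 and 0.62 ± 0.08. Of 46 tested effectors, 10 rose and 16 fell, or 21.7% and 34.8%, against 21.6% and 17.7% of all tested genes.

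Among 33 exchange factors, 9 rose and 8 fell, or 27.3% and 24.2%, where all tested genes gave 21.6% and 17.7%. DENND2D rose by 1.05 ± 0.06, while DENND5B (-0.63 ± 0.07), DENND1B (-0.56 ± 0.05) and DENND3, an exchange factor for RAB12 (-0.54 ± 0.05), fell. Among 29 GTPase-activating proteins, 8 rose and 8 fell, or 27.6% each. TBC1D2, which acts on RAB7, rose by 0.99 ± 0.05 (adjusted p = 8.19e-06), and RABGAP1L (-0.71 ± 0.06), USP6NL (-0.59 ± 0.09) and EVI5 (-0.56 ± 0.07) fell. Of the 6 tested genes for the GDI, escort and prenylation machinery, CHML, an escort protein that presents RABs for prenylation, fell by 0.42 ± 0.06, and GDI2 fell by 0.17 ± 0.04. The prenyltransferase subunits RABGGTA (-0.08 ± 0.04) and RABGGTB (-0.02 ± 0.04) did not pass the test.

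Macrophage markers moved with temperature as well: 6 of the 8 were called higher and 1 lower at 40 °C, and their summed linear level ran from 9541 to 10430 at 40 °C, against 8402 to 8469 at 37 °C. The part of this in the RAB differences was not tested. Poly-A spike controls, transcripts added to the RNA before labelling, averaged 7.769 ± 0.035 at 40 °C and 7.685 ± 0.040 at 37 °C. With their level as a covariate, 6 members were called higher and 2 lower, and RAB20 (1.54), RAB7B (0.80), RAB23 (0.83), RAB32 (0.60) and RAB40B (-0.78) kept their calls. RAB7A (0.26, adjusted p = 0.0836), RAB38 (0.34, adjusted p = 0.0873) and RAB27A (0.06, adjusted p = 0.67) lost theirs, as did RAB39A, RAB13 and RAB19.

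**Figure D3:**
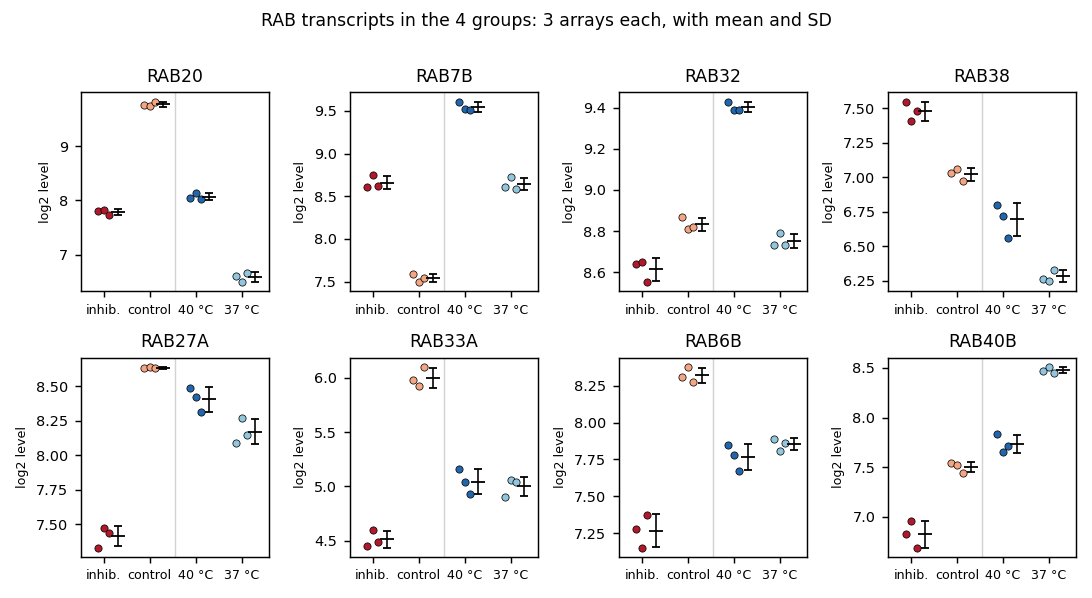
Log2 level of 8 RAB genes on each array of the 4 groups, with mean and SD (n = 3 each) beside the points and a separate vertical axis for each gene. RAB20 and RAB7B lie in opposite order in inhibitor cells and their controls, and RAB40B is highest at 37 °C.

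The inhibitor comparison asks which RAB transcripts differ when a thermomiR is blocked in cells that grew at 40 °C. Blocking it went with lower levels of RAB20, RAB33A, RAB27A and RAB6B, each by more than 1 on the log2 scale, and with a higher level of RAB7B. In all, 17 members were called lower and 8 higher, or 51% of the 49 tested, against a background of 45.2% of all tested genes. By direction, 34.7% of the members fell, against 19.6% of all tested genes, and 16.3% rose, against 25.7%. The members' median difference was -0.07, against 0.09 over all tested genes. Of the called differences of at least 0.5, 8 members fell and 1 rose, against 9.36% and 7.9% of all tested genes. Without control replicate 3, 5 members were called higher, since RAB8A, RAB12 and RAB39A lost the call.

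RAB20 again had the largest difference. It read 7.81, 7.83 and 7.73 in inhibitor cells, against 9.75, 9.74 and 9.82 in control cells. The control arrays are close to each other and far above the inhibitor arrays. The difference was -1.98 ± 0.06 (3.95-fold lower, adjusted p = 2.42e-06). RAB7B went the other way, with 8.61, 8.75 and 8.62 in inhibitor cells, against 7.59, 7.49 and 7.54 in control cells. Every inhibitor array was higher, by 1.12 ± 0.06 on average (2.17-fold, adjusted p = 2.55e-05), and its other probe set rose by 0.93. RAB7A read 10.89, 10.96 and 10.89 in inhibitor cells, against 11.03, 10.96 and 11.00 in control cells (-0.08 ± 0.06, not called), while its 2 other probe sets fell by 0.40 and 1.88.

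Of the 9 tested late endosomal members, RAB20 and RAB7B included, 3 were called higher and 3 lower, or 33.3% each, against 25.7% and 19.6% of all tested genes. RAB38 read 7.55, 7.41 and 7.48 in inhibitor cells, against 7.03, 7.06 and 6.97 in control cells, a rise of 0.46 ± 0.06 (adjusted p = 0.000915). RAB32 read 8.64, 8.65 and 8.55, against 8.87, 8.81 and 8.82, and fell by 0.22 ± 0.06 (adjusted p = 0.0178). The 2 relatives moved apart, and neither has another tested probe set. The RAB32 call was lost without control replicate 1 or 3 and without inhibitor replicate 3, with differences from -0.23 to -0.19, and with the replicate block (adjusted p = 0.0821) and the spike covariate (adjusted p = 0.635). RAB9A, which returns mannose 6-phosphate receptors from late endosomes to the Golgi, read 8.10, 8.29 and 8.04 in inhibitor cells, against 8.84, 8.60 and 8.75 in control cells, and fell by 0.59 ± 0.09 (adjusted p = 0.00171). RAB12 rose by 0.26 ± 0.07.

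RAB27A read 7.33, 7.47 and 7.44 in inhibitor cells, against 8.63, 8.64 and 8.63 in control cells. The groups are far apart, and RAB27A fell by 1.22 ± 0.06 on the log2 scale (2.33-fold lower, adjusted p = 1.52e-05). Its 5 other tested probe sets were lower by 0.33 to 0.91, with 4 of the 5 called. MLPH, its partner in granule transport, read 5.93, 5.89 and 5.76 in inhibitor cells, against 9.05, 9.01 and 8.98 in control cells, and fell by 3.15 ± 0.07 (8.90-fold lower, adjusted p = 9.21e-07). With the mean of its probe sets it fell by 1.08. MYO5A differed by 0.22 ± 0.10 and was not called.

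Of the 13 tested ER and Golgi members, 5 were called lower and 1 higher, or 38.5% and 7.69%, against 19.6% and 25.7% of all tested genes. RAB33A, a relative of RAB33B, read 4.45, 4.60 and 4.49 in inhibitor cells, against 5.98, 5.92 and 6.10 in control cells, and fell by 1.49 ± 0.07 (2.80-fold lower, adjusted p = 1.49e-05). Its inhibitor level lies at the low end of the tested range. RAB6B, a Golgi RAB, read 7.28, 7.15 and 7.37 in inhibitor cells, against 8.31, 8.38 and 8.28 in control cells, and fell by 1.06 ± 0.07 (adjusted p = 4.94e-05); of its 2 other probe sets, 1 fell by 1.26 and 1 differed by -0.11. RAB2A, which serves ER to Golgi and lysosomal traffic, read 11.04, 11.14 and 11.00, against 11.65, 11.62 and 11.65, and fell by 0.58 ± 0.06, but none of its 3 other probe sets was called. RAB1A read 11.42, 11.43 and 11.41 in inhibitor cells, against 11.85, 11.88 and 11.78 in control cells, and fell by 0.42 ± 0.06 (adjusted p = 0.000868). RAB6A fell by 0.29 ± 0.06. RAB39A rose by 0.46 ± 0.13, and its mean of 4.27 in control cells lies below the level used for testing.

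Of the 7 tested early endosomal members, 3 fell (42.9%, against 19.6% of all tested genes) and none rose by limma (25.7% of all tested genes), with 0 higher at an unadjusted p under 0.05 as well. RAB5C read 8.37, 8.51 and 8.30 in inhibitor cells, against 8.90, 8.93 and 9.06 in control cells, and fell by 0.57 ± 0.08 (adjusted p = 0.000922). Neither of its 2 other probe sets was called. RAB5A read 10.89, 11.00 and 10.95, against 11.19, 11.08 and 11.16, and fell by 0.20 ± 0.06 (adjusted p = 0.0342), while its other probe sets fell by 0.71 to 1.19. The RAB5A call was lost without control replicate 1 or 3 and without inhibitor replicate 1 or 3, with differences from -0.20 to -0.17. It was also lost with the replicate block (adjusted p = 0.13), with no filter (0.0551), with every probe set tested (0.0504), with median centring (0.083) and with the spike covariate (0.384). RAB5B read 8.75, 8.64 and 8.67, against 8.74, 8.70 and 8.76 (-0.05 ± 0.06), and was not called. RAB22A fell by 0.32 ± 0.07, while its other probe set differed by 0.05 and was not called. RAB21 was not called, but its other probe set was called higher, by 0.21. In recycling, the 2 RAB11 genes moved apart: RAB11A read 10.71, 10.80 and 10.65 in inhibitor cells, against 11.09, 11.12 and 11.17 in control cells (-0.41 ± 0.06, adjusted p = 0.00164), and RAB11B read 11.11, 11.06 and 11.12, against 10.75, 10.75 and 10.83 (0.32 ± 0.06, adjusted p = 0.00302). All 3 other probe sets of RAB11A fell, whereas none of the others of RAB11B was called. RAB35 fell (-0.35 ± 0.06) and RAB15 rose (0.31 ± 0.07).

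RAB40B read 6.83, 6.96 and 6.69 in inhibitor cells, against 7.54, 7.52 and 7.44 in control cells, and fell by 0.67 ± 0.08 (adjusted p = 0.000506). RAB23 (-0.36 ± 0.07) and RAB10 (-0.31 ± 0.06) fell, and the exocytic RABs RAB8A (0.23 ± 0.06) and RAB8B (0.32 ± 0.06) rose. With the mean of probe sets, RAB8B, RAB11B and RAB22A lost their inhibitor calls, and with the replicate block RAB8A and RAB12 lost theirs. Of the members, 30 had groups that do not overlap, or 61.2%, against 54.1% of all tested genes.

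Of the 117 tested regulators, 33 were called higher and 30 lower, or 28.2% and 25.6%, against 25.7% and 19.6% of all tested genes. OPTN (optineurin), an autophagy receptor that binds RAB8, read 7.83, 7.71 and 7.78 in inhibitor cells, against 8.88, 8.87 and 8.81 in control cells, and fell by 1.08 ± 0.06 (adjusted p = 2.25e-05). Of the other effectors, OSBPL1A fell by 0.82 ± 0.10 and BICD1, an adaptor between RAB6 and dynein, rose by 0.83 ± 0.07. CHML read 8.25, 8.34 and 8.25 in inhibitor cells, against 7.49, 7.30 and 7.25 in control cells, a rise of 0.93 ± 0.08. In the same list RABAC1 (0.57 ± 0.06) and RABGGTA (0.36 ± 0.07) rose, GDI2 fell by 0.37 ± 0.06, and RABGGTB differed by -0.02 ± 0.06. Of the 33 exchange factors, 10 rose and 7 fell, or 30.3% and 21.2%. C9orf72 (-0.92 ± 0.06), DENND2D (-0.67 ± 0.09) and HPS1, a subunit of the exchange factor for RAB32 and RAB38 (-0.66 ± 0.07), fell. HPS4, the partner subunit of HPS1, went the other way and rose by 0.45 ± 0.07. RABGEF1, an exchange factor for RAB5, rose by 0.89 ± 0.13. GTPase-activating proteins moved both ways, with 10 of 29 higher and 10 lower, or 34.5% each, against 25.7% and 19.6% of all tested genes. RABGAP1L (-0.71 ± 0.07), TBC1D4 (-0.66 ± 0.11), TBC1D15 (-0.61 ± 0.08) and TBC1D9 (-0.57 ± 0.09) fell, while TBC1D13 (0.57 ± 0.07) and SGSM2 (0.55 ± 0.06) rose. TBC1D4 averaged 4.45 in inhibitor cells, below the level used for testing. PPM1H (0.58 ± 0.06) and LRRK1 (0.41 ± 0.07) rose, and LRRK2, at 4.08 ± 0.13 in inhibitor cells and 4.18 ± 0.19 in control cells (SD, n = 3 each), was near the lower end of measured signal in both.

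The poly-A spike controls differed between these groups, at 5.825 ± 0.271 in inhibitor arrays and 7.070 ± 0.351 in control arrays (SD, n = 3 each), and no spike value of 1 group lies within the range of the other. With the spike level as a covariate, the members still called were 3, all lower, namely RAB20 (-1.93, adjusted p = 0.0119), RAB33A (-1.57, adjusted p = 0.0323) and RAB27A (-1.24, adjusted p = 0.0394). RAB7B (1.08, adjusted p = 0.0528) and RAB6B (-1.12, adjusted p = 0.0646) kept their size and missed the threshold. Of the regulators, MLPH and OPTN were still called. Macrophage markers also differed, with 1 of 8 called higher and 5 lower, and a summed linear level of 9341 to 9674 in inhibitor arrays, against 13970 to 14160 in control arrays. Of the lymphocyte markers 1 was called higher, NKG7, at 7.46 in inhibitor cells and 6.49 in control cells, and that list summed to 329.4 to 354.5 in inhibitor arrays, against 231.8 to 253.9 in control arrays, without overlap. The part of the markers in the RAB differences was not tested.

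**Figure D4:**
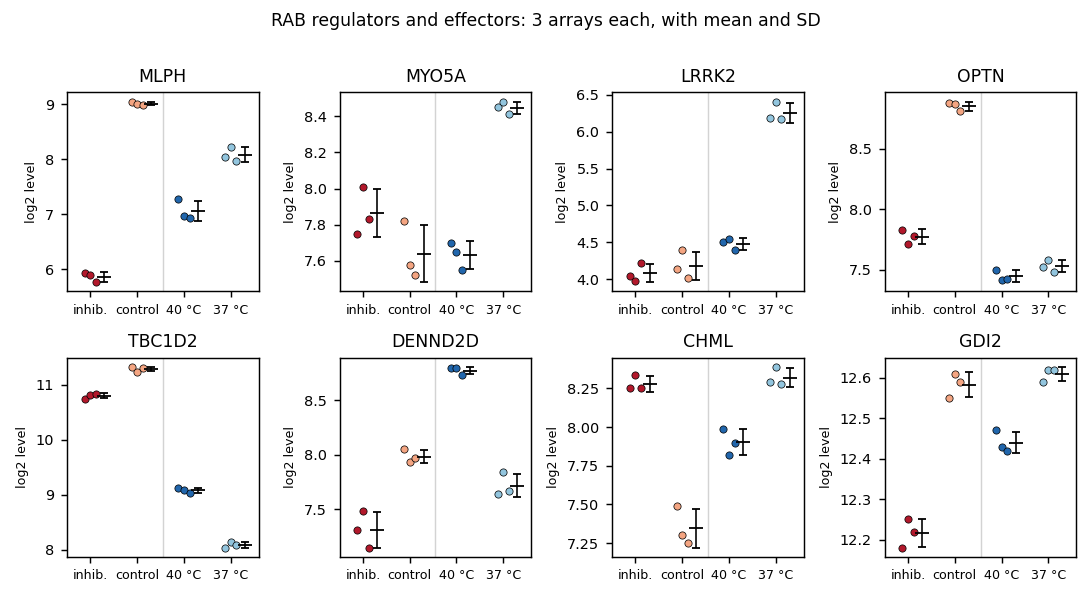
Log2 level of 8 genes that act on RAB proteins on each array of the 4 groups, with mean and SD (n = 3 each) and a separate vertical axis for each gene. MLPH is lowest in inhibitor cells and highest in their controls, and LRRK2 is above 6 only at 37 °C.

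Temperature and inhibitor were tested on separate arrays, so their calls may be set side by side. RAB7B, RAB38 and RAB39A were called higher in both (6.12% of the tested members, against 7.74% of all tested genes), and RAB5A and RAB40B were called lower in both (4.08%, against 6.02%). Higher at 40 °C and lower with the inhibitor were 5 members, RAB10, RAB20, RAB23, RAB27A and RAB32 (10.2%, against 4.95%). By limma, 0 members were lower at 40 °C and higher with the inhibitor, against 4.04% of all tested genes, and 20 were called in neither (40.8%, against 38.2%). These shares are a description, with no test of their difference. Several of the calls they count were lost in alternative settings. Among them are those of RAB10 and RAB27A with temperature and of RAB5A, RAB32 and RAB39A with the inhibitor. With the spike covariate, RAB20 and RAB27A alone of the members named here kept the inhibitor call. RAB7B, RAB38, RAB40B, RAB10 and RAB23 thus lost theirs too. In the temperature comparison that covariate removed the calls of RAB27A, RAB38 and RAB39A.

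Ratios between close relatives within an array were compared for 12 pairs in the 3 comparisons, 36 exact two-sided permutation tests in all, whose smallest possible p with 3 arrays against 3 is 0.1 (0.133 after Benjamini-Hochberg adjustment), so none could pass. RAB7B over RAB7A changed by 0.59 with temperature and by 1.20 with the inhibitor. RAB32 over RAB38 changed by 0.24 with temperature and by -0.68 with the inhibitor. RAB5A over RAB5C changed by -0.37 with temperature and by 0.37 with the inhibitor, and RAB40B over RAB40C by -0.79 and -0.82. In each of these the groups do not overlap (exact permutation p = 0.1, the smallest possible). Most of the 36 readings gave the same, so this does not set these pairs apart. RAB8A over RAB8B changed by 0.00 with temperature (exact p = 0.8) and by -0.09 with the inhibitor (exact p = 0.3).

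**Figure D5:**
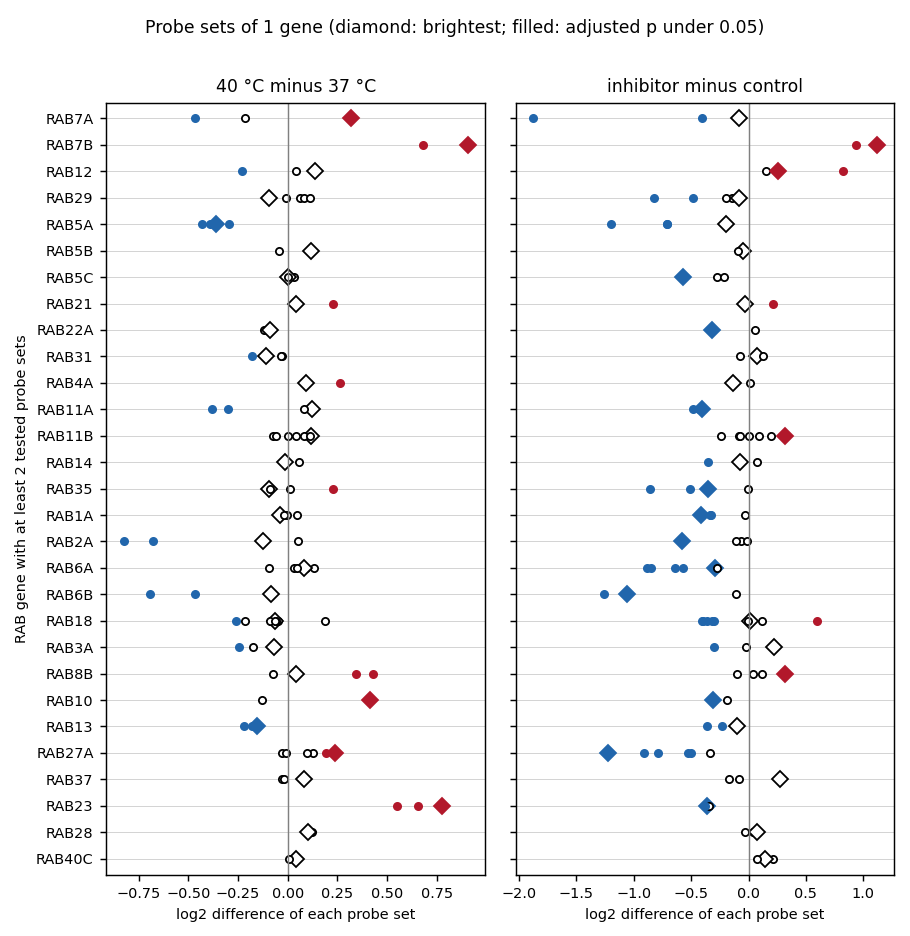
Log2 difference of every tested probe set of the 29 RAB genes that have at least 2 tested probe sets, for 40 °C minus 37 °C and for inhibitor minus control. Diamonds are the probe sets that stand for the gene in the text, and filled points passed an adjusted p under 0.05, red for higher and blue for lower. RAB7B, RAB23 and RAB5A keep 1 direction at both probe sets or at all of them with temperature, and RAB7A does not.

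How far other probe sets bear out a call could be read for part of the members. With temperature, 7 of the 14 called members have another tested probe set, and in 5 of them another was called in the same direction and in 1, RAB7A, in the opposite one. With the inhibitor, 16 of the 25 called members have another, and in 10 of them another was called in the same direction and in 0 in the opposite one. Members read by 1 tested probe set alone include RAB20, RAB32, RAB38, RAB39A and RAB40B in both comparisons.

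The control cells of the inhibitor experiment were set against the 40 °C cells to place the 4 groups on 1 scale. These groups share 40 °C but differ in nucleofection, sorting and experiment, which cannot be told apart, and they also serve as a group in the comparisons above, so no agreement with those is read. The difference between experiments was wider than either treatment: 24 members were called higher and 17 lower, or 83.7% of those tested, against 74.8% of all tested genes (36.9% higher and 37.9% lower). Of the members, 13 were higher and 10 lower by at least 0.5, against 18.7% and 20% of all tested genes, and 41 had groups that do not overlap, against 76.7% of all tested genes. Spike controls averaged 7.070 ± 0.351 in the control arrays and 7.769 ± 0.035 at 40 °C. All 8 macrophage markers were called, 5 higher and 3 lower, and their summed linear level was 13970 to 14160 in control arrays, against 9541 to 10430 at 40 °C. In addition, 2 lymphocyte markers and 1 fibroblast or epithelial marker were higher in control cells, and the part of these markers was not tested.

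From the arrays given above, RAB20 was 1.70 ± 0.06 higher in control cells than at 40 °C, and RAB7B was 2.01 ± 0.06 lower (adjusted p = 8.94e-08 and 4.03e-08). RAB42, a relative of the RAB39 genes, read 6.71, 6.65 and 6.76 in control cells, against 5.40, 5.66 and 5.43 at 40 °C, and was higher by 1.21 ± 0.08. RAB37, which is known from granule release in mouse mast cells, read 6.13, 6.26 and 6.17 in control cells, against 4.82, 5.07 and 5.14 at 40 °C, and was higher by 1.18 ± 0.09. In each of the 4 the groups do not overlap.

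RAB33A (0.96 ± 0.08), RAB10 (0.91 ± 0.06), RAB19 (0.77 ± 0.09), RAB5C (0.75 ± 0.06) and RAB22A (0.68 ± 0.06) were also higher in control cells. RAB10 read 10.80, 10.77 and 10.84 in control cells, against 9.98, 9.82 and 9.89 at 40 °C. RAB19 read 6.03, 6.37 and 6.15, against 5.30, 5.43 and 5.50, and RAB22A read 9.44, 9.47 and 9.57, against 8.88, 8.82 and 8.75. All these control arrays lie above all the 40 °C arrays.

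Lower in control cells was RAB29, the RAB that recruits LRRK2, with 8.79, 8.68 and 8.87, against 10.07, 10.04 and 10.07 at 40 °C (-1.28 ± 0.06). RAB39A read 4.41, 4.18 and 4.22 in control cells, against 5.52, 5.68 and 5.49 at 40 °C (-1.29 ± 0.08). RAB12, which sends transferrin receptor to degradation, read 7.03, 7.16 and 7.13, against 8.28, 7.89 and 8.01 (-0.95 ± 0.10). Each of these groups stays below the 40 °C arrays throughout.

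RAB14, which works between early endosomes and the Golgi and on phagosomes, read 9.76, 9.91 and 9.91 in control cells, against 10.72, 10.67 and 10.63 at 40 °C (-0.81 ± 0.06). RAB15, a RAB of recycling from early endosomes, read 6.32, 6.26 and 6.14, against 7.10, 7.0 and 6.97 (-0.78 ± 0.07). RAB17 read 4.81, 4.86 and 4.86, against 5.64, 5.61 and 5.54 (-0.75 ± 0.05). RAB8A, which serves exocytosis and the cilium, read 9.17, 9.17 and 9.18, against 9.94, 9.92 and 9.91 (-0.75 ± 0.05). In each of the 4 the control arrays lie below every 40 °C array, and the RAB8A arrays of a group lie close together.

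Of the members with the best-known endosomal and secretory roles, RAB1A (0.62 ± 0.06), RAB5A (0.55 ± 0.05), RAB5B (0.52 ± 0.05), RAB7A (0.48 ± 0.06), RAB38 (0.33 ± 0.07), RAB11A (0.27 ± 0.05) and RAB27A (0.23 ± 0.06) were higher in control cells and RAB32 (-0.57 ± 0.05) was lower. Probe sets disagreed more here: of the 24 called members with another tested probe set, 8 have one that was called in the opposite direction, RAB2A, RAB6A, RAB6B, RAB11A, RAB14, RAB22A, RAB27A and RAB35. For RAB11A the mean over its probe sets was 0.50 lower in control cells, and RAB27A lost its call with that mean (0.02), with median centring (0.13) and with the spike covariate (0.25). Of 117 regulators, 94 were called, or 80.3%, near the 74.8% of all tested genes, with TBC1D2 (2.21 ± 0.05), MLPH (1.96 ± 0.09) and OPTN (1.41 ± 0.05) higher and DENND3 (-1.59 ± 0.06) and RIN2 (-1.35 ± 0.06) lower in control cells. RAB18, RAB21, RAB36 and RAB40C were the 4 tested members called in none of the 3 comparisons. Other probe sets of RAB18, RAB21 and RAB40C were called in some, with 2 of RAB40C higher in control cells than at 40 °C, by 0.58 and 0.52. For RAB18 with the inhibitor, 5 of its 8 other tested probe sets were called lower and 1 higher, with differences from -0.41 to 0.59. Between control cells and 40 °C, 5 of those 8 were likewise called lower and 1 higher. Whether RAB18 is unchanged thus rests on the probe set read.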

How the data were processed

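Biotin-labelled total RNA was measured on 12 arrays. In the table the authors deposited, 49395 probe sets have log2 values, with 2 decimals and array medians of 5.72 to 5.87. Not given in the sources used here are background correction, normalization, software and genome build, so their effect on the values could not be examined. Arrays were grouped by title and treatment label. Gene symbols came from the platform annotation: 44988 probe sets have 1 symbol, 1832 several and 2473 that are not controls none. All 57 members matched RefSeq by Entrez number. RAB1B, RAB4B, RAB6C, RAB24 and RAB43 have only probe sets with several symbols and are no members.

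Genes at or above the 30th percentile (log2 4.48, n = 13909) were fitted per comparison with limma 3.58.1 (lmFit and eBayes, R 4.3.3, 3 arrays against 3, no block, two-sided), with Benjamini-Hochberg adjustment and a threshold of 0.05. Differences are of mean log2 values, folds their linear ratios, errors SDs over arrays or SEs of the fit. The number of arrays limits the precision. Members and lists were chosen with earlier results of these data known. Members are given per array where called with a difference of at least 0.5 (up to 8 per direction and comparison), with 12 others by role; regulators, up to 4 called per list and comparison, with the GDI, escort and prenylation genes and LRRK2. The list of those genes was written by role from general knowledge. The procedure was also run on simulated data with independent noise and few changed genes, unlike these arrays, and no result here rests on it. Same-numbered arrays of compared groups did not deviate together (correlations from -0.604 to 0.241), so numbers were not taken as pairs. Alternatives were a joint fit, the replicate block, other filters, the mean of probe sets or every probe set, quantile normalization, median centring, eBayes with trend and robust, array weights, the spike level as covariate and leaving out each array. Python 3.11.15, pandas 2.3.3, NumPy 2.4.6, SciPy 1.17.1 and matplotlib 3.10.9 were used. Listed genes without a probe set of 1 symbol are not analysed here.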

Additional observations from a re-analysis of the deposited data

Results flagged for a closer look

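Probe sets that carry several gene symbols were left out of the comparisons, and 12 of them name a RAB gene. Over the temperature and inhibitor comparisons these gave 24 readings, of which 6 were higher and 5 lower on every array at 40 °C or with the inhibitor than on any array of the other group. For the gene pair RAB1A and RAB1B, 2 probe sets were higher in inhibitor cells than in control cells. They averaged 8.22 ± 0.09 and 8.69 ± 0.06 in inhibitor cells, against 7.94 ± 0.11 and 8.34 ± 0.06 in control cells (SD, n = 3 each), differences of 0.273 and 0.353. The third probe set of that pair was lower by 1.017 in inhibitor cells, and the RAB1A probe set described above fell. Both probe sets for RAB24 and MXD3 were higher at 40 °C, by 0.213 and 0.203. A probe set for RAB40A and RAB40AL was higher in inhibitor cells by 0.477, at 3.65 ± 0.13 in inhibitor cells and 3.18 ± 0.20 in control cells, below the level used for testing. A probe set for RAB6A, RAB6C and RAB6D was higher at 40 °C by 0.347 and was lower by 1.107 in inhibitor cells. The other probe set for those 3 genes differed by -0.337 with the inhibitor (9.96 ± 0.10 in inhibitor cells, against 10.30 ± 0.06 in control cells). A probe set for RAB43 and ISY1-RAB43 differed by -0.713 with the inhibitor (7.96 ± 0.16 in inhibitor cells, against 8.68 ± 0.09 in control cells) and by -0.247 with temperature. These probe sets were not tested, and which of the named genes they read cannot be told apart.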

How the results depend on the processing

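The number of members called lower at 40 °C (4) was 2 with the replicate block, 9 with the mean of probe sets, 12 with every probe set counted, 2 with the spike covariate, and 2 to 4 when 1 array was left out. Members called higher at 40 °C (10) numbered 6 with the spike covariate. With the inhibitor, members called higher (8) numbered 5 with the mean of probe sets, 0 with the spike covariate and 5 to 12 when 1 array was left out, and members called lower (17) numbered 3 with the spike covariate. Regulators called numbered 32 with temperature and 2 with the inhibitor under the spike covariate, against 63 each. The spike level differs between inhibitor and control arrays without overlap, so that covariate shares its variation with the groups. RAB7A reversed to -0.12 (adjusted p = 0.0277) with temperature, and RAB11A to -0.50 (adjusted p = 1.54e-05) between inhibitor-experiment controls and 40 °C, both with the mean of probe sets, whose members differ in direction. Over the 48 gene differences taken as main values, 771 alternative values kept direction and call, 37 lost the call and 2 reversed. These 48 were picked among differences called in the main fit, mostly by size, and the alternatives reuse the same arrays. Weaker calls are not among them, such as those of RAB13 and RAB19 with temperature and RAB8A and RAB12 with the inhibitor. The share kept therefore does not describe the other members. Same-numbered arrays share only a number, and the replicate block moved no other count by more than 1.5 times, with 6 members higher and 15 lower in the inhibitor comparison. Signals near 4.48 on the log2 scale limit LRRK2, RAB33A, RAB39A and TBC1D4.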
